A study of Mus musculus with 9 samples.

Results

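The 7 sarcomeric myosin heavy chain genes *Myh1*, *Myh2*, *Myh3*, *Myh4*, *Myh7*, *Myh7b* and *Myh8* were described in the gastrocnemius muscle of mice during disuse and the return of load. They were chosen by name, through the gene symbols that the authors' tables pair with gene identifiers, and all 7 were found among 55487 genes in the count table and among the 14851 genes tested. The study asked how muscle gene expression differs at the transition from atrophy to regrowth. It compared 4 Control libraries from mice kept in ordinary cages, 2 Unloading libraries from mice unloaded for 10 days, a procedure in which the animal is suspended so that its hindlimbs bear no weight, and 3 Reloading libraries taken 1 day after such mice had returned to normal cage activity. All mice were wild-type C57BL/6 per the labels, with C57BL/6J given in the methods, and male per the labels, although the methods name females for the unloading. The age of the mice was not given in the sources used here, and each library is labelled as a separate sample without an animal number, so p-values measure the spread between these samples.

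Myosin heavy chain is the motor protein of the thick filament, and the isoform a fibre makes largely sets its speed of contraction. In adult mouse limb muscle, *Myh7* encodes the slow type I chain, *Myh2* the fast IIA chain, *Myh1* the fast IIX chain and *Myh4* the fastest IIB chain, while *Myh3* (embryonic) and *Myh8* (perinatal) are used mainly during development and regeneration. *Myh7b* is an ancient slow-type chain that is expressed at low level in limb muscle. The gastrocnemius of the mouse is known as a mostly fast muscle with many IIB fibres.

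Polyadenylated RNA was sequenced to between 9252443 and 19612101 read pairs assigned to genes per library. The muscle fibre markers *Acta1*, *Ckm*, *Mb*, *Des*, *Ttn* and *Neb* were present in every library. Trimmed mean of M-values (TMM) factors, which scale libraries so that most genes do not differ, were between 0.928 and 0.960 in Control and Unloading and between 1.11 and 1.13 in Reloading, and the share of pairs assigned to mitochondrially encoded genes was between 9.36% and 10.6% in Control and Unloading and between 6.49% and 6.75% in Reloading. Skin keratin transcripts stood out in Control 2 (290.8 in sum over 6 markers in CPM, the usual unit of counts relative to the scaled library size) and Reloading 1 (132.0), against at most 4.20 in the other libraries. Results that turn on those libraries are given with and without them.

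Of the 7 genes, 5 lie side by side on the forward strand of chromosome 11 in the order *Myh3* (chr11:67078300-67102291), *Myh2* (chr11:67171027-67197517), *Myh1* (chr11:67200052-67224575), *Myh4* (chr11:67238029-67260446) and *Myh8* (chr11:67277124-67308634). *Myh7* lies on the reverse strand of chromosome 14 (chr14:54970684-54994626) and *Myh7b* on chromosome 2 (chr2:155611212-155634307). These are positions in the count table, in the mouse genome build GRCm38. RefSeq promoters (build GRCm38.p6, from 250 bases before to 50 after the annotated start) were found for all 7 genes. Those of the adult fast chains *Myh2*, *Myh1* and *Myh4*, and of the perinatal neighbour *Myh8*, are printed 5′ to 3′ on the forward strand because they share an exact run of bases that the other 3 promoters do not hold. In *Myh2* (chr11:67170777-67171076), *Myh1* (chr11:67199852-67200151) and *Myh4* (chr11:67237562-67237861) the capitals mark a run of 20 bases common to the 3 promoters, and in *Myh8* (chr11:67276874-67277173) they mark the 14 bases of it that all 4 promoters share.
Myh2: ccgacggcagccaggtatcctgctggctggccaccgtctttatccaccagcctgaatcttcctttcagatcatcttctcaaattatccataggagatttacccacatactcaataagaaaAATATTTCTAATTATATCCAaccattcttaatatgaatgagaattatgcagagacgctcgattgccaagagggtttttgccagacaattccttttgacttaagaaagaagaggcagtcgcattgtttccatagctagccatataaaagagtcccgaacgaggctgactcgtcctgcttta
Myh1: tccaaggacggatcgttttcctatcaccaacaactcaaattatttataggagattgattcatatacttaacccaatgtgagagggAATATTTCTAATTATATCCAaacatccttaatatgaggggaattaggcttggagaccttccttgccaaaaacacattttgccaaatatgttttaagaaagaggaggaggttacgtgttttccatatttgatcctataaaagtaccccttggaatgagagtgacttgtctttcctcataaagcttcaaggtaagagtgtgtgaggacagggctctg
Myh4: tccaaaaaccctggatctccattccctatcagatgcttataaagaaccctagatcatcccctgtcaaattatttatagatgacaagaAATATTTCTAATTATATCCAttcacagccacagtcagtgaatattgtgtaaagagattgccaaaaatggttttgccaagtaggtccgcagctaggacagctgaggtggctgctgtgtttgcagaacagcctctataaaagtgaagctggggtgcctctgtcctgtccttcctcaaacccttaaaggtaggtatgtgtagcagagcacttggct
Myh8: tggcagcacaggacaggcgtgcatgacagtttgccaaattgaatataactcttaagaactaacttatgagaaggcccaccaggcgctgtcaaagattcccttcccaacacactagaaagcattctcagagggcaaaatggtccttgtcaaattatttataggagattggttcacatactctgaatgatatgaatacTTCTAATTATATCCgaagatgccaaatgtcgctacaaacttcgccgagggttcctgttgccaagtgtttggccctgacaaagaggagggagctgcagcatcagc

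The run began 130 bases before the annotated start of *Myh2*, 165 before that of *Myh1* and 163 before that of *Myh4*. Searched on both strands of 27025 promoters, 1 per gene symbol, the 20 bases were found in 3 (0.0111%), those of the adult fast chains. The 14 bases were found in 4 (0.0148%), those of the adult fast chains and *Myh8*, where they began 54 bases before the start. *Myh1*, *Myh4* and *Myh8* also shared a run of 15 bases further upstream, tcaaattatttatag, which was found in 3 promoters. No run of 10 or more bases was common to all 7. Of named motifs, searched on both strands, TATAAA was in 14.2% of all promoters and in those of *Myh2*, *Myh1*, *Myh4*, *Myh3* and *Myh8*. In *Myh2* it lay 10 bases after the annotated start, and in *Myh8* only on the reverse strand, within the 15-base run. The E-box CANNTG was in 72.1% of promoters and in those of *Myh4*, *Myh8*, *Myh3*, *Myh7* and *Myh7b*, with none in the windows of *Myh2* and *Myh1*. A MEF2 motif was in 3.26% of promoters and in those of *Myh1*, *Myh4* and *Myh8*, within the 15-base run. A CArG box, the motif of serum response factor, was in 1.57% of promoters and, among the 7, in that of *Myh4*. The RefSeq start of *Myh4* lies 217 bases before the gene's start in the count table. These matches describe letters in short windows and say nothing of binding.

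The coding sequences are alike enough to limit how reads can be split between them. In the GENCODE vM21 transcripts, the coding sequences of *Myh1* and *Myh2* were identical at 91.1% of aligned bases, those of *Myh1* and *Myh4* at 90.2%, and that of *Myh7b* was identical at 69.4% to 72.2% with the other 6. Of the 50-base windows (the read length in the study's methods) of the longest coding transcript, 32.1% for *Myh1*, 28.9% for *Myh2*, 18.9% for *Myh4* and 21.4% for *Myh8* also occurred in a transcript of another gene. For *Myh7* the share was 28.2%, most of it with its neighbour *Myh6*, the fast cardiac chain. For *Myh3* it was 4.81%, and for *Myh7b* no window was shared. Levels between the fast isoforms are therefore uncertain by the reads that such windows lose or misplace, whereas *Myh7b* and *Myh3* share few or none of these exact windows. Reads misplaced despite mismatches were not measured, and *Myh3* had between 20 and 63 pairs in a library beside at least 524969 for *Myh4*.

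*Myh4*, the IIB chain, held the highest count of any gene in all 9 libraries, with between 5.45% and 6.47% of assigned pairs. In TMM-scaled CPM per kilobase of exon (CPM per kb), its Control level was 10770 ± 721.1 (SD, n = 4), followed by *Myh1* at 467.5 ± 64.7, *Myh2* at 301.9 ± 22.5, *Myh7* at 23.0 ± 8.64 and *Myh8* at 1.92 ± 0.182. *Myh3* (0.702 ± 0.153) and *Myh7b* (0.539 ± 0.167) were lowest. The order *Myh4*, *Myh1*, *Myh2*, *Myh7*, *Myh8* held in 9 of 9 libraries, with the closest neighbours *Myh1* and *Myh2* between 1.40-fold and 3.97-fold apart. *Myh3* and *Myh7b* were the exception, with *Myh3* the higher in the 4 Control libraries and *Myh7b* in the other 5. The ranges of the 2 genes overlapped within Control and within Reloading, and the difference between them within a library was not tested. Their counts were small, between 20 and 63 pairs for *Myh3* and between 32 and 95 for *Myh7b*.

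**Figure D1:**
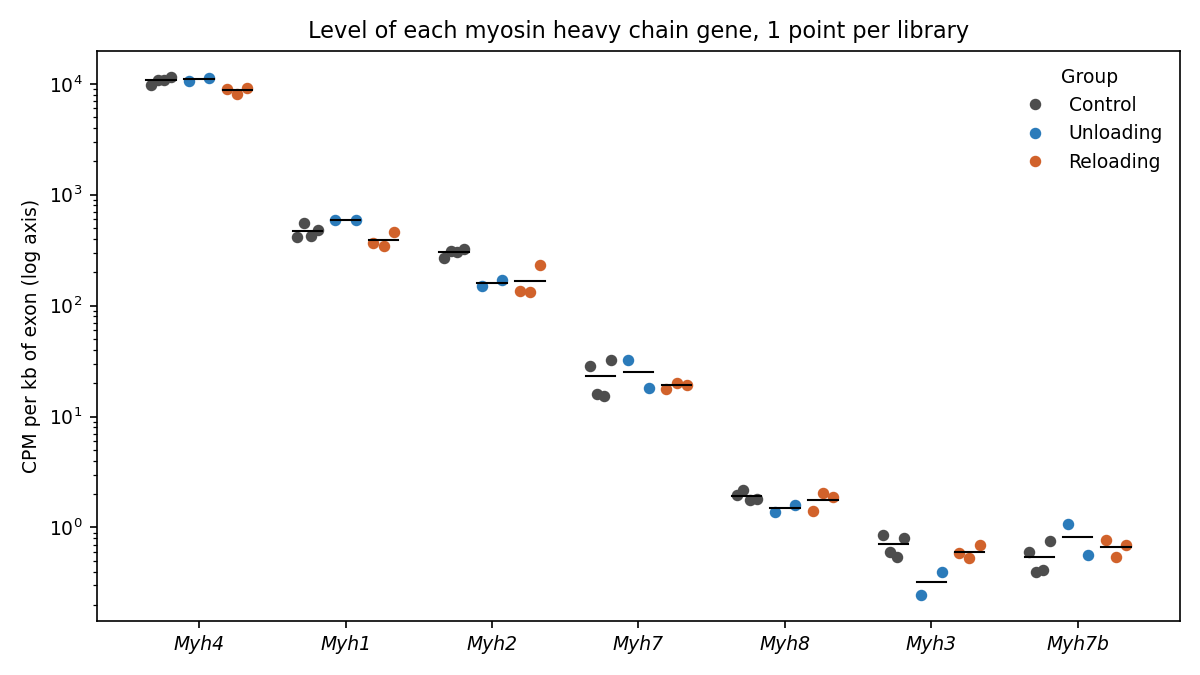
Level of the 7 genes in CPM per kb of exon on a log axis, with 1 point per library coloured by group (grey Control, blue Unloading, orange Reloading) and a black line at each group's mean. The isoforms span from about 10770 for *Myh4* to 0.539 for *Myh7b* in the Control means, and the Unloading points of *Myh2* and *Myh3* lie below those of Control.

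Each isoform's share was taken within a library as its pairs per kb over the sum of the 7 genes, a measure that does not depend on the scaling between libraries. *Myh4*, *Myh1* and *Myh2* together made up between 99.69% and 99.85% of the sum in every library, with no more than 0.282% for *Myh7*, 0.0238% for *Myh8*, 0.00941% for *Myh7b* and 0.00811% for *Myh3*. These shares depend on the length used, here the summed exon length of 11772 bases for *Myh8* and 8616 for *Myh7*. With the longest transcript's length, chosen after seeing the data, the highest values were 0.388% for *Myh7* and 0.0454% for *Myh8*. The Control share of *Myh2* was then between 2.98% and 3.13%. *Myh4* made up 93.1% ± 0.506 in Control (n = 4), 93.4% ± 0.257 in Unloading (n = 2) and 93.8% ± 0.962 in Reloading (n = 3). Its share was 0.248 percentage points higher in Unloading than in Control (exact two-sided permutation test, p = 0.8, where 0.0667 is the smallest p that 4 against 2 libraries allow). It was 0.423 points higher in Reloading than in Unloading (exact permutation p = 0.5, smallest possible 0.1) and 0.671 points higher in Reloading than in Control (exact permutation p = 0.257, smallest possible 0.0286). After Benjamini-Hochberg adjustment over the 3 comparisons these exact permutation p-values were 0.8, 0.75 and 0.75. With so few libraries, no outcome could have passed the adjusted p threshold of 0.05. These tests therefore cannot decide whether the *Myh4* share differed. Its ranges overlapped between all groups, at 92.41% to 93.59% in Control, 93.19% to 93.55% in Unloading and 92.71% to 94.54% in Reloading.

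The share of *Myh2* moved most among the abundant isoforms. It was 2.56%, 2.69%, 2.61% and 2.58% in Control 1 to 4, 1.31% and 1.39% in Unloading 1 and 2, and 1.42%, 1.54% and 2.36% in Reloading 1 to 3. Both Unloading libraries and all 3 Reloading libraries were below the 4 Control libraries, and Reloading 3 lay close to Control. The share of *Myh1* was between 3.65% and 4.74% in Control, 5.20% and 4.88% in Unloading, and between 3.82% and 4.70% in Reloading, so that the Unloading libraries were the highest. The ratio of *Myh1* to *Myh2* per kb was between 1.40 and 1.76 in Control, 3.97 and 3.50 in Unloading and 2.69, 2.63 and 1.99 in Reloading. The share of *Myh7* ranged from 0.131% to 0.269% within Control alone and did not separate the groups. These shares other than that of *Myh4* are given as values without a test.

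**Figure D2:**
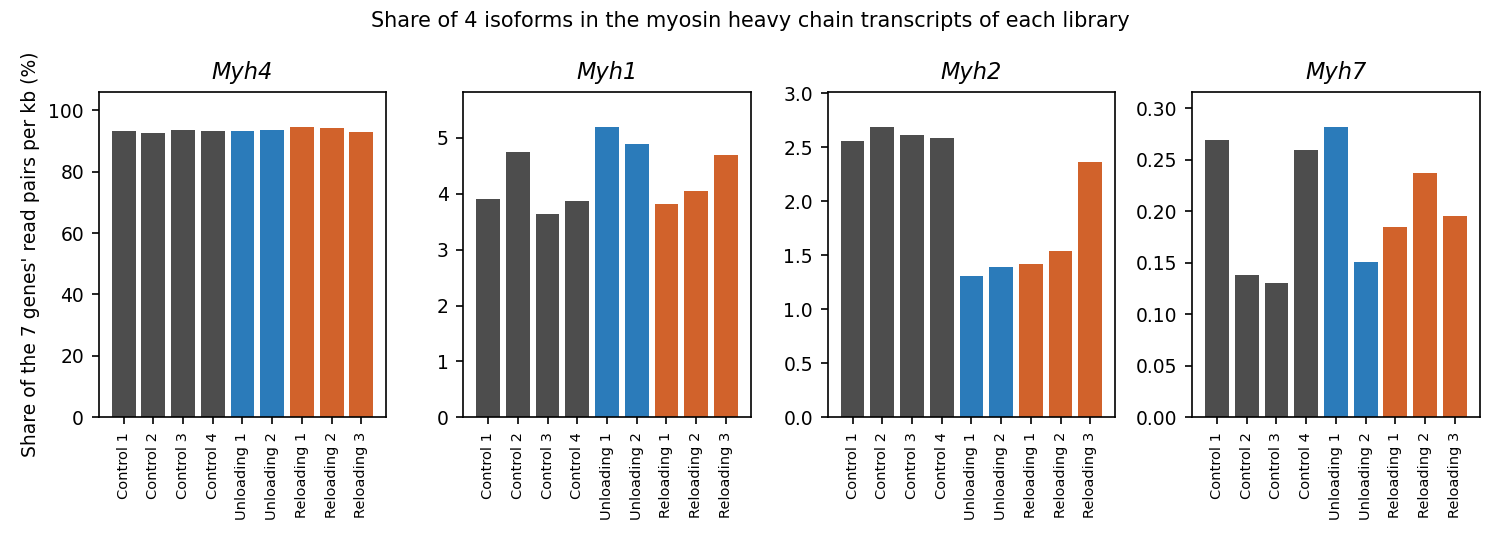
Share of *Myh4*, *Myh1*, *Myh2* and *Myh7* in the summed read pairs per kb of the 7 genes (percent, axes from 0), 1 bar per library in grey for Control, blue for Unloading and orange for Reloading. *Myh2* bars are highest in the 4 Control libraries (2.56% to 2.69%), while *Myh4* bars stay between 92.4% and 94.5%.

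After 10 days of unloading, *Myh2* and *Myh3* fell and none of the 7 genes passed the test as higher, with *Myh1* at an unadjusted p of 0.0133 from edgeR and past the threshold in DESeq2 (adjusted p = 0.0442). By edgeR's quasi-likelihood test over all 14851 genes, with Benjamini-Hochberg adjustment, 2 of the 7 passed the threshold of 0.05, against a background of 9.90% of all genes, 4.40% higher and 5.50% lower. That background rested on Unloading 1, without which 121 in place of 1470 genes passed, and it was 949 genes without Control 3. The median log2 fold change was 0.03 over the 7 genes and 0.00 over all genes. After 1 day of reloading, compared with Unloading, *Myh1* and *Myh4* fell and *Myh3* rose, that is 3 of 7 genes where 37.5% of all genes were called, 18.5% higher and 19.0% lower. In Reloading against Control, *Myh2* and *Myh4* were lower and none was higher, 2 of 7 where 43.5% of all genes were called, 22.1% higher and 21.3% lower. Without Control 2 and Reloading 1 all 7 of these calls held, with adjusted p-values from 0.00356 for *Myh1* against Unloading to 0.0355 for *Myh3* against Unloading. The shares called among the 7 in the Reloading comparisons were near or below the background. The comparisons share libraries, so a value in 1 of them is not independent of the others.

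*Myh4* did not pass the test after unloading and was lower in Reloading. Its TMM-scaled CPM were 59200, 64850, 65360 and 69800 in Control 1 to 4, 63870 and 68080 in Unloading, and 54390, 48320 and 54970 in Reloading. All Reloading libraries lay below all Control and Unloading libraries, which overlapped each other. The log2 fold change was 0.03 ± 0.08 (SE) for Unloading against Control (adjusted p = 0.879), and *Myh4* fell by 0.33 ± 0.09 in Reloading against Unloading (adjusted p = 0.00855, 1.26-fold lower) and by 0.30 ± 0.07 in Reloading against Control (adjusted p = 0.00402). With library totals in place of TMM both falls became small, −0.08 (adjusted p = 0.416) and −0.06 (adjusted p = 0.451), since that scaling put the median of all genes at 0.27 and 0.25. Relative to the median of all genes the change was −0.35 against Unloading and −0.31 against Control in either scaling. A change of scaling shifts all genes nearly alike, so this sameness was fixed beforehand and lends the fall no support. The fall against Unloading also missed the threshold without Unloading 2 (adjusted p = 0.0652) or without Reloading 2 (0.0518).

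Markers of other cells and of the fibre itself moved with this result. In sum over its list, the fibre marker level was between 62350 and 71340 CPM in Control and Unloading and between 48320 and 51400 in Reloading. Of its 6 genes, 4 were called lower and none higher in Reloading than in Unloading, where 19.0% of all genes were lower. Against Control 4 were lower and 1 was higher, where 21.3% and 22.1% of all genes were. The 4 smooth muscle markers summed to between 41.4 and 47.2 CPM in Control and Unloading and between 97.3 and 112.7 in Reloading. All 4 rose against both other groups, where 18.5% of all genes were called higher against Unloading and 22.1% against Control. Macrophage markers (6 genes) summed to between 64.8 and 74.9 CPM before and between 136.6 and 153.8 after reloading, endothelial markers (4 genes) to between 112.1 and 135.8 and between 200.4 and 251.0, and tendon markers (4 genes) to between 45.5 and 69.7 and between 114.2 and 155.3. Against Unloading 5 macrophage, 3 endothelial and 3 tendon markers were called higher, where 18.5% of all genes were. *Cd163* (−0.10), *Tek* (0.29) and *Mkx* (−0.11) did not pass. Single genes weighed much in the sums, as *Cd68* went from 3.05 CPM in Unloading to 45.9 in Reloading and *Thbs4* from 39.3 to 122. No gene of these 4 lists was at 0 in any library. Neutrophil markers stayed at or below 5.53 CPM in sum, with up to 3 of 4 genes at 0. In bulk muscle, fewer fibres and less of a transcript per fibre cannot be told apart, and the part of these cells in the lower *Myh4* level was not tested.

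*Myh1*, the IIX chain, was highest in Unloading and fell on reloading. Its CPM were 2618, 3514, 2688 and 3060 in Control, 3760 and 3751 in Unloading, and 2322, 2195 and 2943 in Reloading. Unloading lay above all other libraries, while Control and Reloading overlapped. The rise of 0.34 ± 0.12 in log2 after unloading did not pass the test (adjusted p = 0.0892). It did in 5 of 18 alternatives, among them DESeq2 and the fit without Control 2, the Control library with the highest *Myh1* (adjusted p = 0.0285). On reloading *Myh1* fell by 0.60 ± 0.13 against Unloading (adjusted p = 0.002, 1.51-fold lower), and it remained past the threshold in 18 of 18 alternatives. Against Control the log2 fold change in Reloading was −0.26 ± 0.11 (edgeR, adjusted p = 0.0686). It passed the threshold in 6 of 18 alternatives, among them without Control 1 (0.0397), Control 3 (0.0428) or Reloading 3 (0.00821). With a block for the description numbers, whose pairing of Control and Reloading is not settled, it also passed (−0.29, 0.0125).

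*Myh2*, the IIA chain, fell with unloading and stayed low in most Reloading libraries. It stood at 1928, 2238, 2161 and 2291 CPM in Control, 1065 and 1203 in Unloading, and 971.0, 939.2 and 1662 in Reloading. The groups did not overlap between Control and either of the others, and Reloading 3 was the only library between the levels of Control and Unloading. Unloading was 1.90-fold below Control, a log2 fold change of −0.93 ± 0.18 (adjusted p = 0.00544), and the call was lost without Unloading 1 (−0.84, adjusted p = 0.123) and in a robust fit (adjusted p = 0.0714). In Reloading the level was 1.81-fold below Control (−0.86 ± 0.15, adjusted p = 0.000364), a call that held in 18 of 18 alternatives. Between Reloading and Unloading the log2 fold change was 0.07 ± 0.18 (adjusted p = 0.783), and it turned to −0.25 without Reloading 3 (adjusted p = 0.0625). Without Control 2 and Reloading 1, the libraries with skin transcripts, *Myh2* remained lower in Unloading (adjusted p = 0.00797) and in Reloading (adjusted p = 0.00485) than in Control.

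The slow chains did not pass the test in any comparison, at 0 of 2 genes also in DESeq2 and at an unadjusted p under 0.05. *Myh7* had 244.6, 138.4, 130.8 and 277.9 CPM in Control, 276.7 and 157.0 in Unloading, and 152.5, 174.1 and 165.9 in Reloading. Control and Unloading each held high and low libraries, so the spread within either was wider than any difference between group means. The log2 fold changes of *Myh7* were 0.13 ± 0.26 after unloading, −0.40 ± 0.27 from Unloading to Reloading and −0.27 ± 0.23 from Control to Reloading (adjusted p = 0.795, 0.267 and 0.377). Both Reloading values passed the threshold when genes with low counts were kept in the fit (adjusted p = 2.5e-05 and 0.00499). *Myh7b* ranged between 2.65 and 7.11 CPM over the 9 libraries, highest in Unloading 1, which was also among the highest for *Myh7*. Its log2 fold change after unloading was 0.59 ± 0.28 (adjusted p = 0.198), which passed the threshold without Unloading 2 (0.0475), without a filter on low counts (0.0375) and with a block for the title numbers (0.0498). In Reloading against Control it was 0.33 ± 0.26 (adjusted p = 0.323, and 0.0396 with the title block). In *Myh7*, 1149 of 8616 exonic bases overlap other annotated genes, among them the noncoding RNA *Mhrt*, which had at most 4 pairs in a library.

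Of the developmental chains, *Myh3* fell with unloading and rose on reloading, and *Myh8* did not pass the test. *Myh3* had 5.19, 3.65, 3.29 and 4.89 CPM in Control, 1.497 and 2.404 in Unloading, and 3.55, 3.18 and 4.17 in Reloading. The Unloading libraries lay below all others, and Control and Reloading overlapped. The fall was 2.10-fold (log2 −1.07 ± 0.25, adjusted p = 0.0159) and the rise on reloading 1.82-fold (0.87 ± 0.26, adjusted p = 0.0176), while Reloading and Control differed by −0.20 ± 0.20 (adjusted p = 0.452). Both calls rest on few pairs, 20 in Unloading 1 and 44 in Unloading 2, and were lost without Unloading 1 (adjusted p = 0.227 and 0.163), the second also without Reloading 3 (0.0596). *Myh8* had 23.2, 25.4, 20.7 and 21.1 CPM in Control, 16.1 and 18.8 in Unloading, and 16.6, 23.9 and 22.2 in Reloading, with a log2 fold change of −0.37 ± 0.14 after unloading (adjusted p = 0.108) and 0.26 ± 0.14 on reloading (adjusted p = 0.172). The latter passed the threshold without Reloading 1 (adjusted p = 0.0263), and under library totals, where the median of all genes was 0.27, it was 0.51 (adjusted p = 0.0116).

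**Figure D3:**
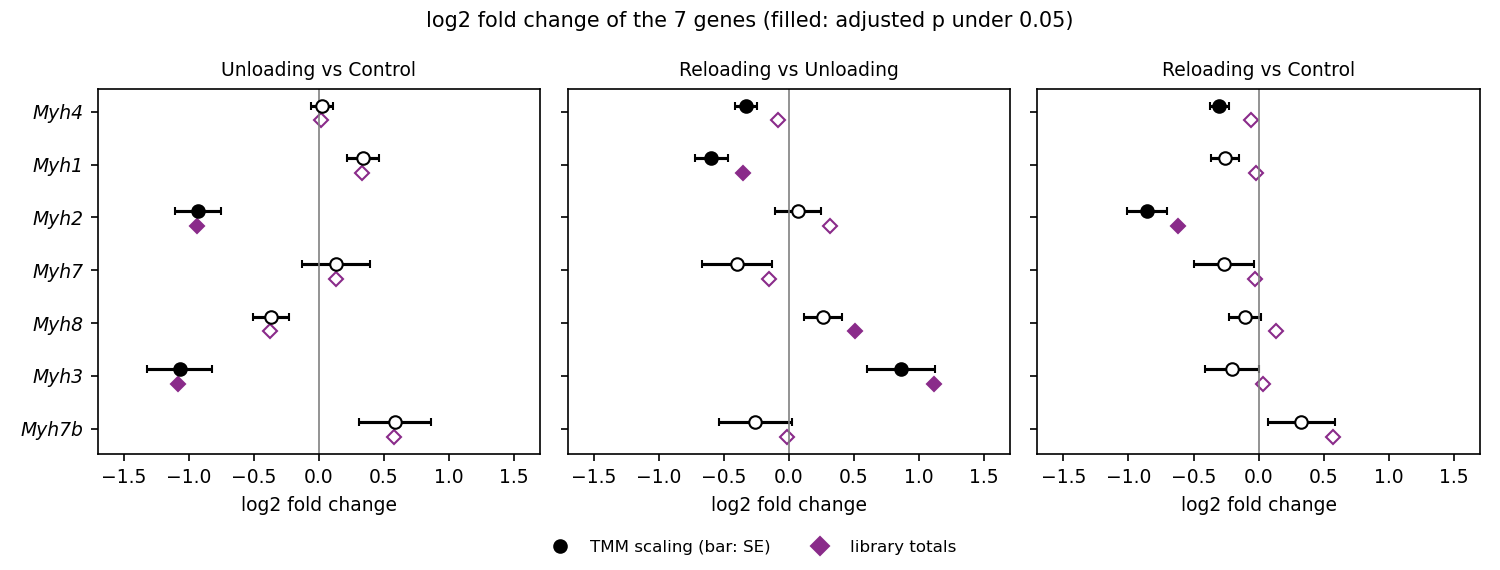
Log2 fold change of the 7 genes in the 3 comparisons, as black circles with SE bars under TMM scaling and as purple diamonds under library totals, filled where the adjusted p is under 0.05. *Myh2* and *Myh3* lie near −1 for Unloading against Control in both scalings, and the filled circles of *Myh4* in the Reloading comparisons become open diamonds nearer to 0.

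A pair of noncoding genes of the fast cluster were also lower in Reloading. *Myhas*, an antisense RNA, starts 239 bases before the RefSeq start of *Myh4* on the reverse strand and runs back across *Myh1* (chr11:67211256-67237573). It had 59.1, 50.3, 54.9 and 49.5 CPM in Control, 52.9 and 52.5 in Unloading, and 28.1, 31.2 and 30.5 in Reloading. Control and Unloading overlapped and every Reloading library was far below both. *Myhas* fell by 0.81 ± 0.09 in log2 against Unloading (adjusted p = 8.99e-06) and by 0.83 ± 0.08 against Control (adjusted p = 9.98e-07), with −0.02 ± 0.08 for Unloading against Control (adjusted p = 0.915). With library totals both falls remained past the threshold (−0.56, adjusted p = 0.000275, and −0.59, adjusted p = 3.28e-05).

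*2310065F04Rik*, on the reverse strand between *Myh3* and *Myh2* (chr11:67112461-67120080), had 119.8, 131.0, 121.3 and 119.5 CPM in Control, 93.3 and 111.9 in Unloading, and 66.8, 78.4 and 85.0 in Reloading. The groups did not overlap in this scaling. It fell by 0.42 ± 0.10 on reloading (adjusted p = 0.00476) and was lower by a log2 of −0.68 ± 0.09 in Reloading than in Control (adjusted p = 2.00e-05). After unloading the value was −0.26 ± 0.10 (adjusted p = 0.106). With library totals Reloading overlapped Unloading and the fall on reloading did not pass the test (−0.17, adjusted p = 0.181), while the value against Control was −0.44 (adjusted p = 0.000592). Another noncoding gene, *9430073C21Rik*, which overlaps the end of *Myh2* on the reverse strand, did not pass the test (between 5.56 and 10.7 CPM). Pairs were counted without regard to strand, and pairs that touch both *Myhas* and *Myh1* exons, which share 515 bases, were assigned to neither. The differences between these genes and the coding genes beside them were not tested.

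**Figure D4:**
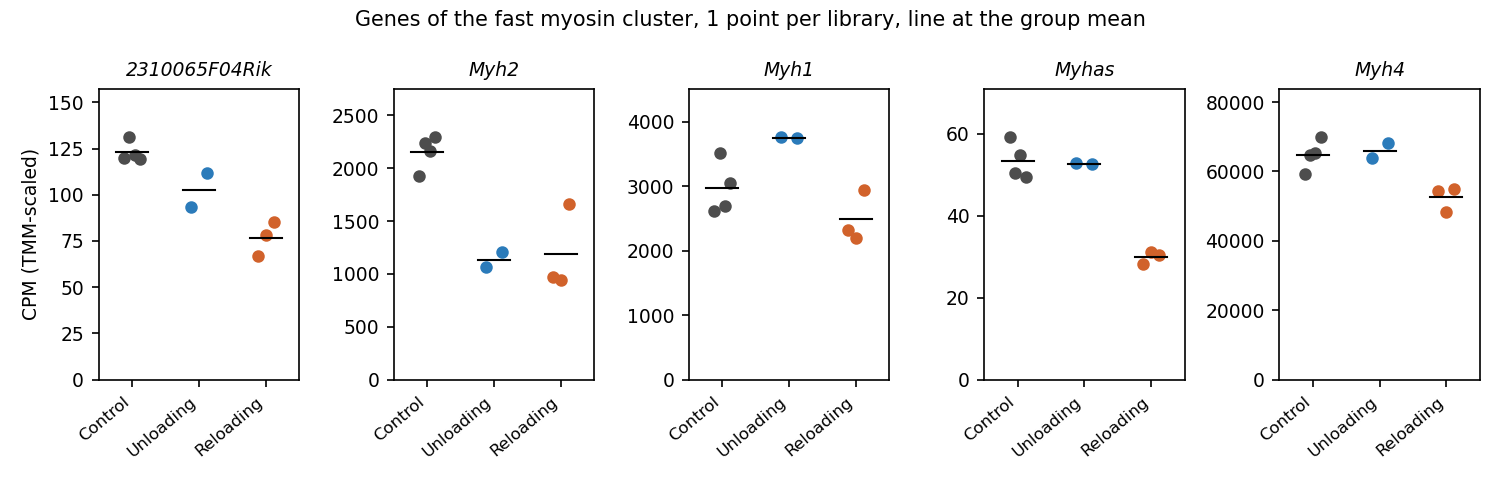
TMM-scaled CPM of 5 genes of the fast myosin cluster in their order along the chromosome, 1 point per library, a black line at the group mean and axes from 0. *Myhas* drops from about 53 in Control and Unloading to 29.9 in Reloading, while *Myh2* is already low in Unloading.

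Fast-fibre genes other than the heavy chains also fell on reloading. Of 14 fast sarcomere genes, 13 were lower in Reloading than in Unloading and none was higher, where 19.0% of all genes were called lower, with a list median of −0.65 against 0.03 over all genes. By size these were *Mylk2*, the kinase of the fast regulatory light chain (−0.91), *Actn3*, the fast Z-disc actinin (−0.73), and the fast troponin T *Tnnt3* (−0.70). Against Control, 13 of 14 were lower, where 21.3% of all genes were, with a median of −0.60. After unloading 4.40% of all genes were called higher and 5.50% lower. In the fast sarcomere list *Actn3* (0.61), *Mylk2* (0.35) and the calcium pump gene *Atp2a1* (0.34) rose. The troponin C gene *Tnnc2* (−0.53), *Myoz3* (−0.45) and the essential light chain *Myl1* (−0.42) fell, with a list median of 0.06 against 0.00 over all genes. Without Unloading 1 these calls came down to 1 higher and 0 lower.

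Slow-fibre genes fell in part, although *Myh7* did not pass the test. Of all genes, 19.0% were called lower in Reloading than in Unloading. After unloading 2 of 10 tested slow sarcomere genes fell, where 5.50% of all genes did, the slow myosin light chains *Myl3* (−1.23) and *Myl2* (−1.07), and none rose. On reloading *Tnnt1* (−0.94), *Tpm3* (−0.73) and *Myl3* (−0.61) fell against Unloading, 3 genes that became 1 without Unloading 1 and 5 without Reloading 3. Against Control, 8 of 10 were lower in Reloading, where 21.3% of all genes were, with a list median of −0.64 against 0.01 over all genes and the largest values in *Myl3* (−1.84), *Myl2* (−1.34) and *Tnnt1* (−0.88). That count of 8 ranged from 3 in the robust fit to 10 without a filter on low counts, and it was 4 with library totals, 5 without Control 1 and 4 without Control 4, without Reloading 1 or without both Control 2 and Reloading 1. The 2 calls after unloading became 1 without Unloading 2.

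Genes for proteins that build or fold the thick filament changed in both directions on reloading, where 37.5% of all genes were called against Unloading. After unloading 4.40% of all genes were called higher and 5.50% lower, and in Reloading against Control 22.1% were higher and 21.3% lower. Of 9 thick filament partners, *Mybph* (2.42), *Myom3*, a myomesin of the M-band (1.29), and *Obsl1* (0.31) rose against Unloading, and 4 fell, with *Myom1* (−0.66), the titin gene *Ttn* (−0.34) and *Myom2* (−0.26) the largest. The 4 lower calls became 2 without Unloading 1 or without Reloading 2, and 1 with library totals. After unloading 1 of the 9 passed the test, *Mybph* (−0.95), with 0 lower calls without either Unloading library and 2 without Control 3. Of 9 genes for myosin folding and turnover, none rose and *Smyd1*, a methyltransferase that acts in myosin assembly, fell after unloading (−0.33), and the lower calls of this list numbered 0 without Unloading 1 and 2 without Control 3. On reloading 5 rose, among them *Hsp90aa1* (2.57) and its myosin co-chaperones *Unc45b* (0.74) and *Unc45a* (0.65), and the ubiquitin ligase gene *Fbxo32* fell (−0.67). Against Control 6 were higher and 3 lower, and the 3 lower calls were lost with library totals.

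Regulators of fibre type moved in both directions, at 14 of 26 on reloading, where 37.5% of all genes were called. On reloading 10 of 26 fell, among them *Tbx15*, a T-box factor of fast fibres (−0.92), and *Mef2c* (−0.90). *Rcan1*, a target and inhibitor of calcineurin (2.33), *Vgll2*, a TEAD cofactor (1.44), *Nfatc2* (0.53) and *Eya3* (0.43) rose. With library totals the split was 9 higher and 5 lower. After unloading *Vgll2* (−0.72), *Six4* (−0.50) and *Tead1* (−0.29) were among the genes that fell, and the list had no lower call without Unloading 1 and 2 lower calls without Control 3, Control 4 or Unloading 2. Against Control in Reloading, 6 were higher and 11 lower, where 22.1% of all genes were called higher and 21.3% lower. The list median was −0.19 against 0.01 over all genes.

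Some other genes of developing and regenerating fibres also passed the test, and on reloading those called were all higher. Of 12 tested, where 9.90% of all genes were called, *Actc1*, the cardiac actin used by embryonic fibres (−2.01), and *Myod1* (−0.61) fell after unloading and *Cdh15* (0.44) rose. The call for a higher gene was lost without Control 1, Control 4 or Unloading 1, and 1 of the 2 lower calls without Control 3, either Unloading library or Reloading 2. On reloading *Myog* (1.41), *Myod1* (1.30), *Actc1* (1.15), *Ncam1* (0.78) and *Myf6* (0.52) rose and none fell, with a list median of −0.01 against 0.03 over all genes. These were 5 of 12, where 37.5% of all genes were called in either direction and 18.5% were called higher. Against Control 5 were higher, led by *Myog* (1.32), and *Actc1* was lower (−0.86), where 22.1% of all genes were called higher and 21.3% lower. The satellite cell markers, 4 genes that include *Pax7*, summed to between 26.9 and 41.2 CPM over the 9 libraries.

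Among myosin heavy chains outside the 7, the non-muscle and smooth muscle chains rose on reloading. *Myh9* (1.82) and *Myh10* (1.60), which encode non-muscle myosin II chains, and the smooth muscle chain *Myh11* (1.02) rose against Unloading. *Myh6* (0.69) rose as well, and 2 of 6 tested did not pass, where 18.5% of all genes were called higher and 19.0% lower. The smooth muscle markers, of which *Myh11* is 1 of 4, summed to between 42.1 and 45.6 CPM in Unloading and between 97.3 and 112.7 in Reloading, and the sums of the macrophage and endothelial markers were also higher in Reloading. Their part in these rises was not tested. *Myh6* had 20, 19, 30 and 25 pairs in Control, 33 and 39 in Unloading and 47, 51 and 54 in Reloading, and other heart muscle markers (*Myl7*, *Nppa*, *Tnni3*) did not pass the filter on low counts. None of the 6 passed edgeR's test after unloading, nor in DESeq2, with 1 at an unadjusted p under 0.05. *Myh13*, the extraocular chain at the end of the cluster, had between 31 and 101 pairs and did not pass in any comparison under TMM scaling. With library totals it passed edgeR's test in Reloading against Unloading (0.67, adjusted p = 0.0305) and against Control (0.65, adjusted p = 0.0135). That scaling put the median of all genes at 0.27 and 0.25.

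**Figure D5:**
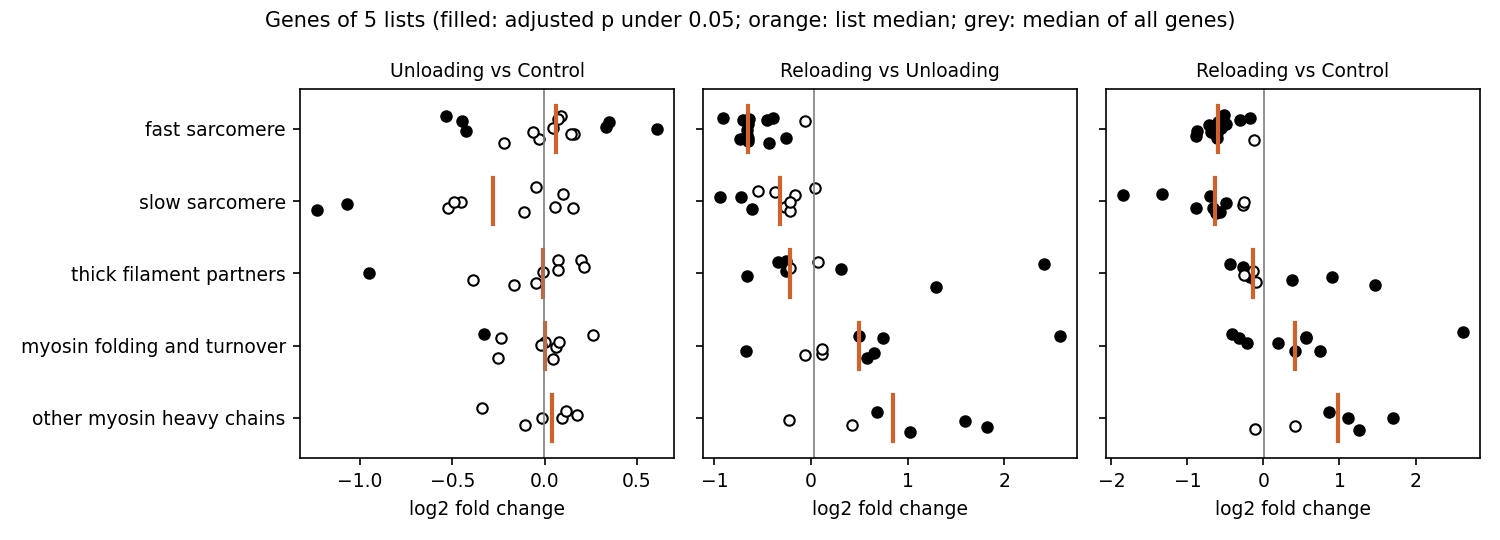
Log2 fold change of each tested gene of 5 lists in the 3 comparisons, filled where the adjusted p is under 0.05, with the list median in orange and the median of all genes in grey. Fast sarcomere genes sit mostly left of 0 in both Reloading comparisons (medians −0.65 and −0.60), and the other myosin heavy chains sit mostly right of it.

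The genes whose log2 CPM followed each member most closely over the 9 libraries were listed as a description, ranked by Pearson's r among 9867 genes with a mean log2 CPM of at least 2. The 9 points fall into 3 groups, so high values are to be found for many genes. *Myh4* was followed by *Zfp141* (r = 0.964), *Mybpc2*, the fast myosin-binding protein C (0.955), and *Rilpl1* (0.955). *Myh1* was followed by *Med24* (0.940), *Bsdc1* (0.934) and *Pcif1* (0.933), and *Myh2* by *Psmd9* (0.975), *Slc25a29* (0.968) and *Rpp21* (0.961). For *Myh7* these were *Mospd2* (0.963), *Zfp326* (0.942) and *Ddx6* (0.939), and for *Myh7b* *Cwc27* (0.930), *Marf1* (0.929) and *Slc25a17* (0.926). *Myh3* was followed by *Tefm* (0.957), *Pdhb* (0.949) and *Pabpc4* (0.945), ranked among 9868 genes, and *Myh8* by *Tmem65* (0.963), *Gm6204* (0.937) and *Tpi-rs10* (0.919). None of the 3 closest genes of a member was another member.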

How the data were processed

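Polyadenylated RNA of gastrocnemius muscle was sequenced in 4 Control, 2 Unloading and 3 Reloading libraries. The authors aligned reads with STAR 2.7.3a (versions per the submitters' processing notes) to GRCm38.p6 and assigned pairs to genes of Ensembl release 102 (per the file header) with featureCounts 2.0.3 regardless of strand, then deposited the raw counts with each gene's summed exon length. The file header lists no option to keep multi-mapped pairs or pairs that overlap several genes, which the tool leaves out by default. The methods describe single reads of 50 bases, whereas the deposited table counts pairs. The authors' DESeq2 tables hold their fold changes and p-values, of which only the gene symbols were used (14823 tested genes, with 23 more from a reference table of gene names).

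The tests on counts used edgeR 4.0.16 under R 4.3.3 (filterByExpr with a minimum count of 10 and minimum total of 15, TMM, quasi-likelihood F-test, two-sided, Benjamini-Hochberg within a comparison, threshold 0.05), with all 9 libraries in 1 fit and group as the only term. The SE of a log2 fold change was derived from the F statistic. Shares were computed per kb of exon, and the share of *Myh4* was compared by exact permutation of libraries. Total counts of 9252443 to 19612101 pairs make 1 pair worth between 0.0546 and 0.113 CPM, and counting error is therefore small except for *Myh3* and *Myh7b*. Coding sequences were aligned with Biopython 1.88. Promoters came from RefSeq, with the first entry used where a gene had more than 1.

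Deviations from the group means correlated at 0.361, 0.143 and 0.155 in the 3 Control and Reloading pairs with the same description number. The pair at 0.361 holds the libraries with skin transcripts. Control and Reloading pairs with unlike numbers ranged from −0.219 (Control 2 with Reloading 3) to 0.117 (Control 1 with Reloading 3). Whether the numbers pair these libraries is therefore not settled, and a block by them was run as an alternative only. Pairs with Unloading correlated at 0.017 to 0.075. Where the numbers come from is not given in the sources used here.

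The 7 genes and the gene lists were chosen with earlier results of these data known. Named genes were the 7, the 3 genes closest to each by Pearson's r, and up to 3 genes per list and direction with the largest change past the threshold, and others were named after their values were seen where few were called. Some results of the list of fibre type regulators are not reported here. Alternatives were DESeq2 1.42.0, DESeq2 size factors, library totals, no filter, a fit of the 2 groups compared, a robust fit, replicate blocks, each library left out, and Control 2 with Reloading 1 left out. The share of *Myh4* was also taken without exon length, with *Myh6*, *Myh13* and *Myh15* in the sum and, chosen after seeing the data, with the longest transcript's length.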

Additional observations from a re-analysis of the deposited data

Results flagged for a closer look

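A library of the Control group of 4 was flagged where its gap to the nearest other library as a share of the group's range (ratio) exceeded Dixon's 95% critical value, which chance exceeds in about 5% of groups. Of 37 groups looked at, 5 were flagged. None concerned the level or the share of any of the 7 myosin heavy chain genes. The antisense-strand gene *2310065F04Rik* was highest in Control 2 (131.0 CPM against 119.5 to 121.3, ratio 0.843). *Myh6* was lowest in Control 2 (1.58 CPM against 2.14 to 2.25, ratio 0.837). The summed level of the myosin heavy chains outside the 7 was lowest in Control 1 (163.8 CPM against 179.3 to 182.3, ratio 0.838). The macrophage markers were lowest in Control 4 (64.8 CPM against 74.7 to 74.9, ratio 0.98). Skin markers summed to 290.8 CPM in Control 2 against 3.00 to 4.20 in the other Control libraries (ratio 0.996).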

How the results depend on the processing

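Over the 3 comparisons, 331 alternative values for the log2 fold changes of the 7 genes kept their direction and their side of the threshold, 10 lost and 20 gained a call, and 17 changed direction. The calls for *Myh2* between Reloading and Control and for *Myh1* between Reloading and Unloading held in every alternative run. The count of 1470 genes past the threshold for Unloading against Control ranged from 121 (without Unloading 1) to 1518 with 1 library left out, and was 949 without Control 3. Leaving out an Unloading library leaves that group with 1, which is then assumed to vary like the other groups. With library totals the calls against Unloading and against Control in Reloading were 82.8% and 80.2% higher, in place of 49.3% and 50.9%. Among values that missed the threshold in the first place, direction turned for *Myh7* after unloading (−0.007 without Control 2 and Reloading 1, −0.327 to 0.484 with 1 library left out), for *Myh4* after unloading (−0.022 to 0.074), for *Myh7* and *Myh7b* in Reloading against Unloading (−0.761 to 0.059 and −0.688 to 0.250), for *Myh2* in the same comparison (−0.245 to 0.211), and in Reloading against Control for *Myh3* (0.036 with library totals) and *Myh8* (0.134 with library totals, 0.093 without Control 2 and Reloading 1, −0.215 to 0.034 with 1 library left out). The cause was not tested. The difference in the *Myh4* share kept its sign, between 0.00885 and 0.430 points after unloading, 0.0502 and 0.966 from Unloading to Reloading and 0.298 and 1.21 from Control to Reloading with 1 library left out. With the longest transcript's length, chosen after seeing the data, these differences were 0.403, 0.387 and 0.790.

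Libraries with the same title number did not deviate together (r from −0.201 to 0.075 over 7 pairs). Unloading libraries correlated at 0.017 to 0.075 with those of the same description number. The deviations of 2 Unloading libraries mirror each other, so this check cannot decide whether either set of numbers pairs them with other groups. Whether description numbers pair Control with Reloading is not settled, and in that block *Myh1* was the 1 member whose call changed between these groups. *Myh3* lost its call after unloading in the title block (adjusted p = 0.0692). With a replicate block by title numbers 1042, 5108 and 5705 genes passed in the 3 comparisons (Unloading with Control, then Reloading with each), against 1470, 5562 and 6456 without it, and with a block by description numbers 1479, 4902 and 6632. The description block also moved list counts after unloading, to 2 higher and 2 lower thick filament partners and 2 higher genes of developing fibres. In these blocks *Myh2* in Reloading against Unloading was −0.114 and −0.151, and *Myh7* in Reloading against Control was 0.017 with title numbers.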
